A study of Mus musculus with 8 samples.

Results

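Leukaemia cells 24 hours and 6 hours into a Klf4 time course were compared by ATAC-seq, an assay that tags accessible DNA with a transposase. The comparison used 4 of the series' 8 libraries, replicates 1 and 2 of 6h and of 24h. GFP-positive cells were sorted from the bone marrow of leukaemic mice, and the labels call them TetO-Klf4-AML cells of bone marrow and give C57BL/7 as their line. All groups carry the MLL-AF9 fusion and the doxycycline-inducible Klf4 construct. The labels differ between the groups only in the time, and do not say how or when doxycycline was given, which promoter drives the inducing transactivator, or whether the cells are 1 clone. The labels give no age of the mice, and do not say whether 2 libraries of a time came from separate mice, so their spread may be technical. Peaks of the 4 lists on the 19 autosomes and X were merged wherever they overlapped by at least 1 bp, which gave 24056 regions. Regions with a peak in both 24h lists and in neither 6h list were called gained, and those with the opposite pattern lost. By this rule 320 regions were gained, 1150 were lost and 10466 were shared by all 4 lists.

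MLL-AF9 joins the N-terminal part of a histone methyltransferase to a partner of the transcription elongation machinery, and keeps Hoxa and Meis1 genes active in myeloid progenitors. Klf4 encodes a zinc-finger factor that binds GC-rich and CACCC-type DNA and acts as an activator at some genes and as a repressor at others. In normal blood it takes part in the formation of monocytes. Open sites at transcript starts tend to be shared between cell types, whereas open sites far from them are mostly enhancers and differ more between cell states.

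The sequences below are the 250 bases upstream of the transcript start for gained and lost regions that lie at a start, so that the reader sees which promoters the calls fall on. They come from RefSeq on GRCm38.p6, the assembly of mm10, and run 5′ to 3′ on the strand of the gene. Capitals mark matches to CCNCNCCC on either strand, a CACCC-type and GC-box pattern that factors of the KLF and SP families can bind. Dynlt1c (gained; chr17:6601529-6601778, plus strand), Rab3il1 (gained; chr19:10018001-10018250, plus), Dtx2 (gained; chr5:135994550-135994799, plus) and Tnf (gained; chr17:35202008-35202257, minus) are followed by Napb (lost; chr2:148732421-148732670, minus), Fan1 (lost; chr7:64374057-64374306, minus), Castor2 (lost; chr5:134099498-134099747, plus) and Kit (lost; chr5:75574741-75574990, plus).
Dynlt1c: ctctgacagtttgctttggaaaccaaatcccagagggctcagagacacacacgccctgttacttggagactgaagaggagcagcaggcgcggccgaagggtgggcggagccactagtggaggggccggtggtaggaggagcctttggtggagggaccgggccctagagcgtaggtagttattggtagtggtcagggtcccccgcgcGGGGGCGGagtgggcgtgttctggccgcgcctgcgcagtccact
Rab3il1: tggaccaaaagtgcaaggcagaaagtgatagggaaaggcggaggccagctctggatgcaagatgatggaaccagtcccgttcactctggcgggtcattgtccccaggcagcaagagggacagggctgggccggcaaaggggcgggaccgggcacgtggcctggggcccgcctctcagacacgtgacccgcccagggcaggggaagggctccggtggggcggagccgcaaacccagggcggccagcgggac
Dtx2: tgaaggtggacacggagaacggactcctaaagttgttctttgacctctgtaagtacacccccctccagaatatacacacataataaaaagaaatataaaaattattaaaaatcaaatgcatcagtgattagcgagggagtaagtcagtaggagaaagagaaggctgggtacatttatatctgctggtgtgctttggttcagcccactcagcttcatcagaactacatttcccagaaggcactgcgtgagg
Tnf: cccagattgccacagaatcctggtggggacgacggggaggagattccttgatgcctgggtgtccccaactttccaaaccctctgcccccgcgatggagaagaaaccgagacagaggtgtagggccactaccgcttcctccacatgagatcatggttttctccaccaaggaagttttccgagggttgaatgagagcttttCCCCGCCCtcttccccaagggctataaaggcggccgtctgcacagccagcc
Napb: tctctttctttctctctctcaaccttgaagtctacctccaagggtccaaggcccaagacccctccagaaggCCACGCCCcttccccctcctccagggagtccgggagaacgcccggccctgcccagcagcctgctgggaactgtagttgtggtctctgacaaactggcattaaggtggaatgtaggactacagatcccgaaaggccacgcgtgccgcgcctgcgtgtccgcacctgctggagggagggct
Fan1: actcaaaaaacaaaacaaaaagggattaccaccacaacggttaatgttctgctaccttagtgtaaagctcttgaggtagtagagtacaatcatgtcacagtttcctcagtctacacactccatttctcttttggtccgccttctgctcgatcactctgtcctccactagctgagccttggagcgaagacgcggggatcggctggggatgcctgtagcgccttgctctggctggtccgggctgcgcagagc
Castor2: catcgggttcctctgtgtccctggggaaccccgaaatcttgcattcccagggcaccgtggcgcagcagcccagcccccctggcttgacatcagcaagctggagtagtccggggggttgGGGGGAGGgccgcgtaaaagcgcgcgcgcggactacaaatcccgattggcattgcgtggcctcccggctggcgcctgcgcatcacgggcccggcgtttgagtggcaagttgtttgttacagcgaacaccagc
Kit: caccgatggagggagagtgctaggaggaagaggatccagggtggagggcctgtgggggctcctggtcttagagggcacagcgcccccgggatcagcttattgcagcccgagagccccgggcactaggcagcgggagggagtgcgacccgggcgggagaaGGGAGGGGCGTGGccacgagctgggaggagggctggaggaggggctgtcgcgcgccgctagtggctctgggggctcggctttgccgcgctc

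Of these promoters, Dynlt1c, Tnf, Napb and Castor2 held 1 match each and Kit held 2, while Rab3il1, Dtx2 and Fan1 held 0. The called region covered the whole window of Dynlt1c, Tnf and Castor2, and 79 to 167 of the 250 bases of the other windows. The match in the Napb window lies outside the lost region. Over all upstream windows that overlapped a gained region, 24 of 42 held a match, a share of 57.1% (Wilson 95% interval 42.2% to 70.9%). For lost regions the share was 53.2% (45.0% to 61.3%) of 139 windows. It was 68.9% of the 7529 windows under shared regions and 53.4% of all 21044 windows of this length. The median GC content of the windows was 58% for gained, 58.8% for lost, 62.4% for shared and 55.6% for all windows. Windows under no region had a GC content of 50% and a motif share of 42.4%. Those under regions neither gained, lost nor shared had 58.8% and 61.3%. The gained and the lost interval both hold the share of all windows, and the part of GC content in these shares was not tested. TGANTCA, the AP-1 pattern, was found in 9.52% of gained windows (3.77% to 22.1%), 5.76% of lost and 6.17% of all windows. Letters of GAGGAAG, an ETS pattern, were in 11.9%, 8.63% and 10.4% in that order, and TGTGGT, a RUNX pattern, in 16.7%, 11.5% and 12.2%. No difference between gained and lost windows was tested. The gained and the lost intervals overlap for each of the 4 patterns.

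The 4 libraries were of nearly even depth by the background that the peak caller used. The 6h libraries had 2.35 and 2.58 tags per kb and the 24h libraries 2.30 and 2.37, against 1.5 to 2.67 over the whole series. The 6h lists held 17324 and 18068 peaks, and the 24h lists 15104 and 14822. The mean number of peaks was thus 17696 ± 526 at 6h and 14963 ± 199 at 24h (SD, n = 2), a difference of -2733. Every 24h list was shorter than every 6h list, and the exact two-sided permutation test gave p = 0.33, the smallest value that 2 libraries against 2 allow (n = 2). Most of the difference was in distal peaks, those more than 1 kb from a transcript start: 8905 ± 406 at 6h and 6634 ± 272 at 24h (SD, n = 2), while peaks within 1 kb numbered 8791 ± 120 and 8329 ± 72.1. Peaks within 1 kb of a start therefore made up 50.3% and 49.1% of the 6h lists and 54.8% and 56.5% of the 24h lists. This difference of 5.98 percentage points became 0.678 with the lists limited to their 14822 strongest peaks.

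The lists of one time shared about as many regions as lists of different times at 6h, and slightly more at 24h. No test was made of these shares. Of the regions called in either list, 62.9% were called in both 6h lists and 66.0% in both 24h lists. For the 4 pairs of a 6h with a 24h list it was 62.9% and 62.7% for the first 6h list, and 62.0% and 61.5% for the second.

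The Klf4 gene on chromosome 4 was open at both times. A region inside the gene (55530055 to 55530940, 1.99 kb from the start) had a fold enrichment, the ratio of the summit pile-up to the local background, of 7.78 and 7.72 in the 6h libraries and of 6.12 and 5.26 in the 24h libraries. A region over the start (55532429 to 55533010) had 5.57 and 5.58 in the former and 7.38 and 7.28 in the latter. Within their lists the first went from percentiles of 45.6 and 46.1 to 21.6 and 10.0, and the second from 15.3 and 16.2 to 38.7 and 35.3. The values of the 2 times do not overlap in either region and move in opposite directions, and neither passed limma's moderated test over all shared regions (adjusted p = 0.88 and 0.87). The region inside the gene had a fold of 6.42 and 6.88 at 0h and of 6.05 and 7.57 at 12h. That over the start had 5.59 in the first 0h list and no peak in the second. Its 12h values, 8.51 and 4.61, lay on both sides of all its 6h and 24h values. The construct can share exon sequence with the gene, and the lists do not say which of them gave an exonic peak.

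Lost regions outnumbered gained ones as deposited, and the counts were nearly even once all lists had the same length. Gained regions were 1.33% and lost regions 4.78% of the 24056 regions, so gained regions made up 21.8% of the changed ones. When each list was limited to its 14822 strongest peaks by −log10 p, 569 regions were gained and 599 lost, and the gained share was 48.7%. Of those 569 gained regions 305 (53.6%) overlapped a region gained as deposited, and of the 599 lost regions 585 (97.7%) overlapped one lost as deposited. Limiting the lists removed peaks mostly from 6h, which by construction adds gained and removes lost regions. Single libraries set the counts as well, since with 1 library left for a time a region needs fewer calls. Leaving out 6h replicate 1 gave 797 gained and 3939 lost regions, and leaving out 6h replicate 2 gave 862 and 3446. Leaving out 24h replicate 1 gave 1386 and 2167, and leaving out 24h replicate 2 gave 1464 and 2068. The presence of a peak in 2 lists against 2 allows no p-value below 0.33, so no test was made of these counts.

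**Figure D1:**
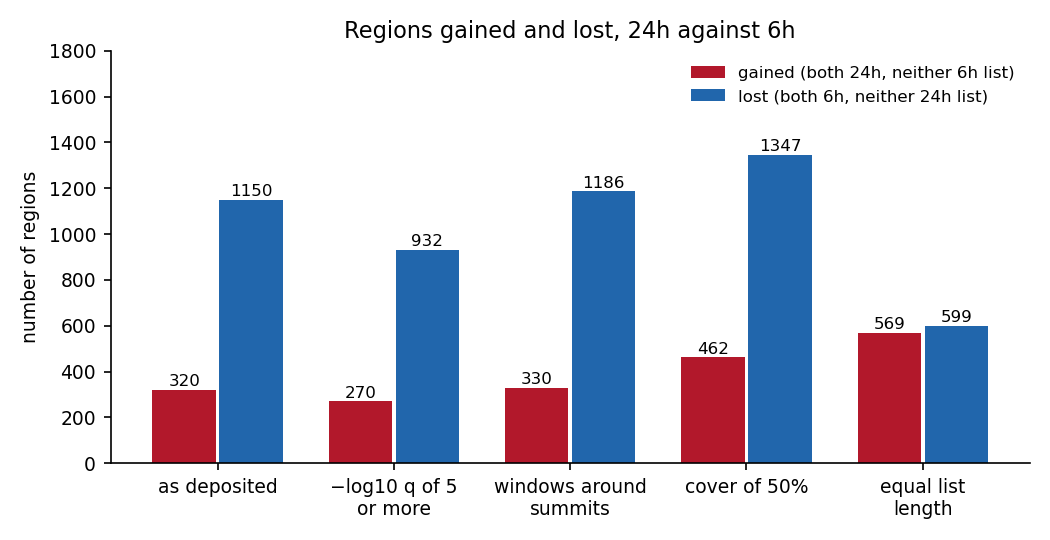
Number of regions gained (red) and lost (blue) at 24h against 6h, as deposited and under 4 other settings; the vertical axis starts at 0. There are 1150 lost and 320 gained regions as deposited, and 599 and 569 at equal list length, the setting with the most even counts.

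Gained and lost regions were weak peaks, as were the other regions that some of the 4 lists lacked. The pile-up at the summit, recovered as a whole number of tags from the fold and the p-value, had a median of 9 tags in the 24h peaks of gained regions and 9 in the 6h peaks of lost regions, with 5th to 95th percentiles of 6 to 16 in both. In shared regions it had a median of 20 and ran from 9 to 45, and in the 12120 regions that were neither gained, lost nor shared it had a median of 9 and ran from 6 to 17. The lowest pile-up of any called peak was 5 in each of the 4 lists, so a site with slightly fewer tags would carry no call. A pile-up of 9 tags has an exact Poisson 95% interval of 4.12 to 17.1, counting error only. The median percentile of fold within the list was 22.2 for gained, 26.2 for lost, 66.7 for shared and 23.1 for those other regions, and 7 gained and 56 lost regions were above the 50th percentile in both lists that called them. The peaks nearest to the calling threshold had a −log10 q of 2.05 in gained and 2.04 in lost regions, while the lists themselves end at 2 to 2.01. Fewer cells with an open site and a less open site in each cell cannot be told apart in such bulk libraries.

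**Figure D2:**
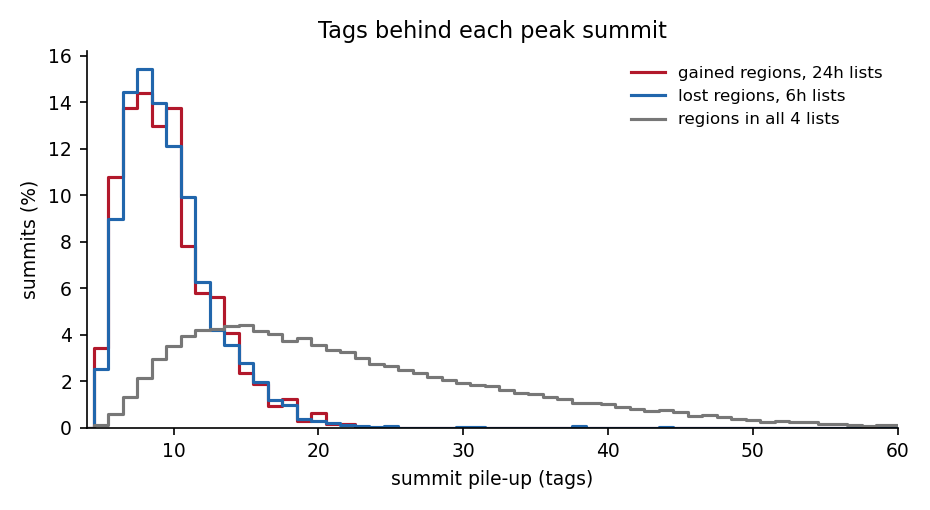
Share of summits (vertical axis, percent) by pile-up in tags (horizontal axis) for the 24h peaks of gained regions, the 6h peaks of lost regions and the peaks of regions called in all 4 lists. Gained and lost regions both have a median of 9 tags, and shared regions a median of 20.

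Both kinds of region lay mostly away from genes' starts, a position they had in common with the other regions not called in all 4 lists. Within 1 kb of a start were 58 of the gained regions, 18.1% (Wilson 95% interval 14.3% to 22.7%), and 198 of the lost ones, 17.2% (15.1% to 19.5%). Among shared regions the share was 68.7%, among the 12120 other regions 19.6%, and among all 24056 it was 40.8%. The median distance to a start was 14.8 kb for gained, 17.8 kb for lost, 0.125 kb for shared and 16.5 kb for the other regions. More than 100 kb from any start were 28 gained and 163 lost regions. A 24h peak lay within 1 kb of 51 of the 1150 lost regions and within 10 kb of 28.4% of them, and the median gap to the nearest was 22.4 kb. For gained regions 28 of 320 had a 6h peak within 1 kb and 38.8% within 10 kb, with a median gap of 14.7 kb.

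The 10 gained regions with the highest mean percentile of fold included 4 inside a gene or at a listed transcript start. The first was a site inside Ssh2, which encodes a slingshot phosphatase that reactivates cofilin (chromosome 11, 77386263 to 77386619, 38.2 kb from the start). It had a fold of 10.8 and 10.4 at 24h, on 16 tags in each library, no peak at 6h or 12h, and 8.75 and 7.74 at 0h. A site inside Arpc1a, a subunit of the Arp2/3 actin-branching complex (chromosome 5, 145098306 to 145098577), had 10.1 and 8 at 24h. It was called in both 0h and both 12h lists too, at 7.47 to 8.63, so only the 6h libraries lacked it. The same held for a site inside App, the amyloid precursor gene (chromosome 16, 85000348 to 85000608), with 9.24 and 9.28 at 24h and 8.70 to 9.71 at 0h and 12h. It also held for the start of Dynlt1c (chromosome 17, 6601429 to 6602038), a dynein light chain of a multicopy family whose reads may be split between copies, with 8.33 and 11.8 at 24h.

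Other leading gained regions lay at gene ends or between genes. An end here is either boundary of a gene without a listed start, so it can be the transcript start. A site 17 bp from an end of Med24, a subunit of the Mediator complex (chromosome 11, 98729352 to 98729541), had a fold of 9.86 and 10.4 at 24h, and was called at 12h (12.0 and 9.92) and in the first 0h list (9.32). A site 35 bp from an end of Nrbp2 (chromosome 15, 76091383 to 76091813) followed the same pattern, with 9.32 and 8.66 at 24h. Sites 41.4 kb from the start of Eapp, which encodes an E2F-associated protein (chromosome 12, 54737035 to 54737444), and 26.0 kb from an end of Itch, a ubiquitin ligase (chromosome 2, 155107331 to 155107637), were also among the 10. Both 12h and both 24h libraries had the Itch site, and no library of 0h or 6h did. So was a site 37.4 kb from Rspo2, an agonist of Wnt signalling (chromosome 15, 42983236 to 42983454), at 8.49 and 12.2 at 24h and 7.65 and 6.75 at 12h. The last of the 10 had no gene within 100 kb (chromosome 10, 97313109 to 97313868). Each of the 10 was called gained also at equal list length and with peaks of −log10 q of at least 5. The equal length is the 14822 peaks of the second 24h list, and the first held 15104. That limit could therefore hardly undo a gained call, and both limits keep strong peaks by construction. With a peak required to cover at least 50% of the region, 7 of them were.

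Lost regions were led by a site of unusual height. The region 39.2 kb from Mex3c, an RNA-binding ubiquitin ligase (chromosome 18, 73533317 to 73533537), had a fold of 44.2 and 47.3 at 6h on 178 and 203 tags, and no peak in either 24h list. It had a peak in both 0h lists and in the second 12h list, and none in the first 12h list, so its call differed between 2 libraries of one time. No list of artefact-prone sequence was used here. The other lost regions named below had a fold of at most 13.3 at 6h.

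The next was a site 34.7 kb from Apbb1ip, an adaptor that links Rap1 to integrin activation (chromosome 2, 22739551 to 22739718), at 13.3 and 10.4 at 6h on 25 and 18 tags. It was called at 6h only, in none of the 6 other libraries of the series. A site inside Tafa4, which encodes a secreted chemokine-like protein (chromosome 6, 97016086 to 97016352), was the opposite case, with 10.8 and 10.4 at 6h and 9.10 to 10.9 in all 4 libraries of 0h and 12h. Sites inside Itsn1, an endocytic scaffold (8.88 and 13.0 at 6h), inside Ttc34 and 5.15 kb from Mmel1 (10.3 and 10.8), 6.19 kb from Rab38, a small GTPase of lysosome-related organelles (10.9 and 9.87), and at Slc39a14, a zinc transporter (10.7 in both), were likewise called in every library of 0h, 6h and 12h. At 24h none of these had a peak. A site 97.5 kb from Vmn2r87, a vomeronasal receptor of a large family, had 10.5 and 11.6 at 6h. All 10 leading lost regions were lost also at equal list length, with −log10 q of at least 5 and with a cover of 50%. Limits on strength keep strong peaks by construction.

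**Figure D3:**
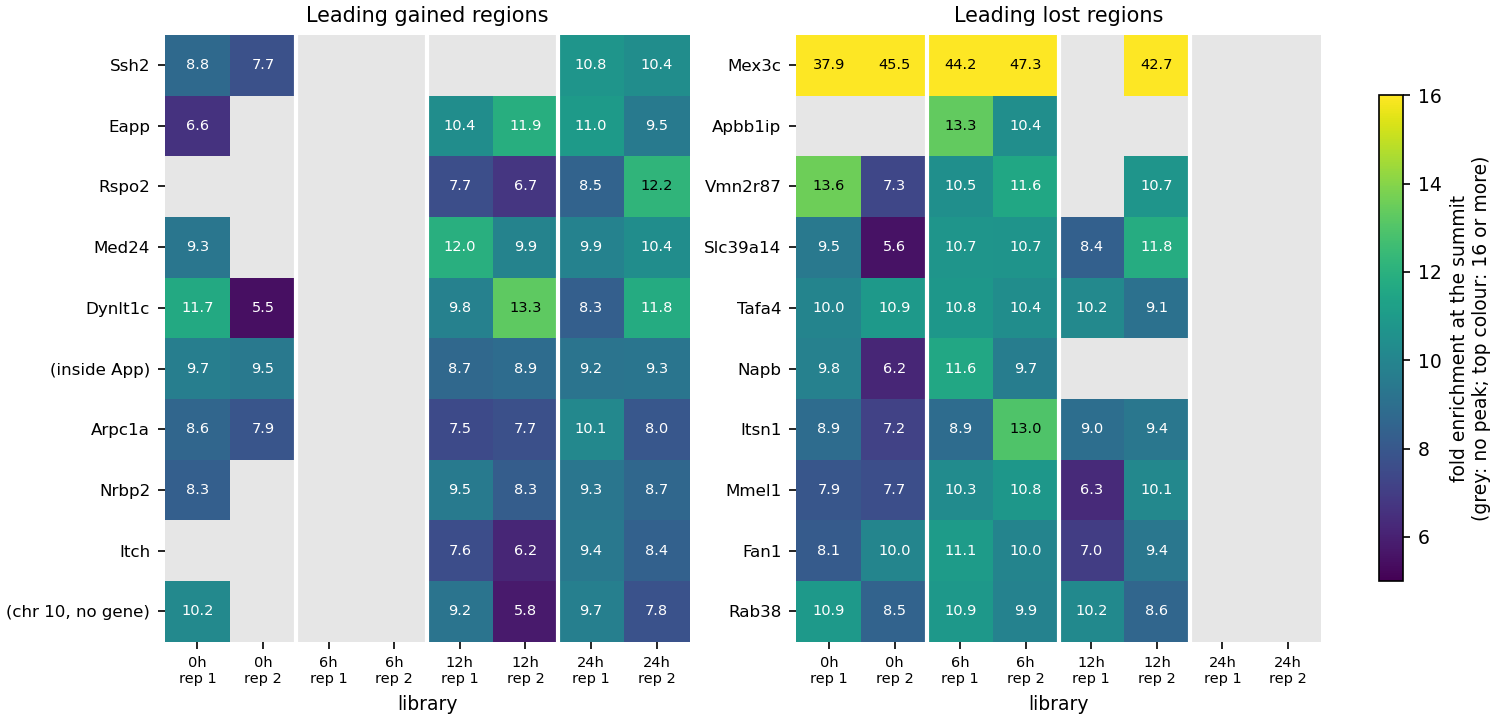
Fold enrichment at the summit in each of the 8 libraries (columns) for the 10 gained and the 10 lost regions with the highest mean percentile of fold (rows); grey cells have no peak. The 6h columns of gained and the 24h columns of lost regions are empty by the rule, and most other columns are filled: 6 of the 10 lost regions have a peak in both 0h and both 12h lists.

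Within 1 kb of a transcript start or of a gene end used in its place, the leading gained regions besides Dynlt1c, Med24 and Nrbp2 were Rab3il1 and Dtx2. Rab3il1, an exchange factor for Rab GTPases (chromosome 19, 10018084 to 10018255, 7 bp from the start), had a fold of 9.45 and 7.88 at 24h, 10.7 and 8.09 at 12h and 6.86 in the first 0h list. Dtx2, a Deltex ubiquitin ligase of the Notch pathway (chromosome 5, 135994721 to 135995105), had 7.21 and 9.60 at 24h on 11 and 15 tags. Among lost starts, Napb, which encodes a protein of SNARE recycling (chromosome 2, 148732259 to 148732580), had 11.6 and 9.66 at 6h, 9.82 and 6.19 at 0h, and no peak at 12h or 24h. Fan1, a nuclease of DNA crosslink repair (chromosome 7, 64373849 to 64374197), had 11.1 and 9.97 at 6h and was called in all libraries of 0h and 12h. Castor2, which belongs to the arginine sensors of mTORC1 (chromosome 5, 134099489 to 134099874), had 9.66 and 10.1 at 6h and up to 12.1 at 12h. Hlf, a PAR bZIP factor of blood stem cells (chromosome 11, 90390868 to 90391060, 10 bp from the start), had 9.56 and 9.34 at 6h, 5.65 and 6.90 at 12h, and 7.55 in the first 0h list. All of these starts except Napb were thus called at 12h as well.

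Most changed regions had a peak at another time, as did most of all regions. The 0h and 12h lists took no part in choosing the regions. A peak in at least 1 of these 4 lists was found for 291 of the 320 gained regions, 90.9% (Wilson 95% interval 87.3% to 93.6%), and for 1047 of the 1150 lost regions, 91.0% (89.3% to 92.6%). The share was 88.5% over all 24056 regions and 78.4% over those neither gained, lost nor shared. In the first and the second 0h list, 57.2% (51.7% to 62.5%) and 33.8% (28.8% to 39.1%) of the gained regions had a peak, and 65.9% (63.1% to 68.6%) and 41.0% (38.1% to 43.8%) of the lost ones. At 12h the shares were 73.1% (68.0% to 77.7%) and 63.8% (58.3% to 68.8%) of the gained regions and 68.5% (65.8% to 71.1%) and 57.0% (54.2% to 59.9%) of the lost ones. Over all 24056 regions they were 73.5% and 56.9% at 0h, and 75.7% and 70.7% at 12h. The second 0h library is the shallowest of the series, and its list had the fewest of these regions in each class. Gained regions were listed more often than lost ones in each 12h list and less often in each 0h list, a difference that was not tested.

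**Figure D4:**
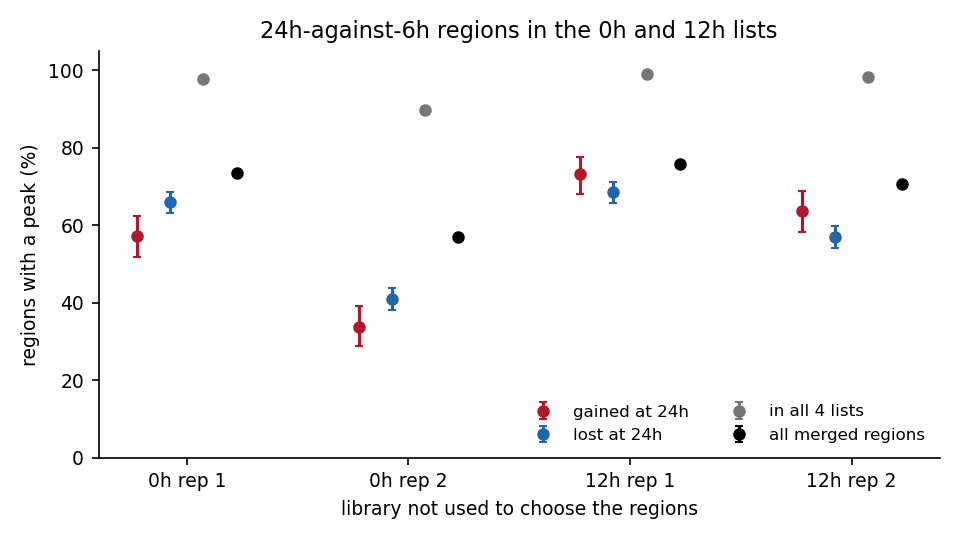
Share of gained, lost, shared and all merged regions (percent, with Wilson 95% intervals for counting error) that had a peak in each 0h and 12h library. Between 33.8% and 73.1% of gained and between 41.0% and 68.5% of lost regions had one.

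Sorted by their whole course, 46 gained regions (14.4%) were called in both 12h lists and neither 0h list, that is at the 2 later times only, and 29 (9.06%) in no list but those of 24h. A further 55 (17.2%) were called in all 4 lists of 0h and 12h, so that 6h was the only time without them. Of the lost regions, 227 (19.7%) were called in all 4 lists of 0h and 12h and missing at 24h only, 40 (3.48%) in both 0h and neither 12h list, and 103 (8.96%) at 6h only. The same courses were not counted over all 24056 regions. Whether missed calls of weak peaks in single lists shape these courses was not tested. Sites seen at 12h and 24h included one 299 bp from an end of Chmp4c, an ESCRT-III subunit, at 6.98 and 9.86 at 24h and 10.4 and 6.53 at 12h. Sites seen at 24h only included one inside Atp2b4, a calcium pump of the plasma membrane (chromosome 1, 133777626 to 133777926; 7.68 and 8.49), and one 2.52 kb from Pmaip1, described below. Sites lost after 0h and 6h included one inside Dnah6, an axonemal dynein (9.26 and 8.65 at 6h, 12.0 and 7.78 at 0h). Sites seen at 6h only included one inside Abcc4, an exporter of cyclic nucleotides and drugs (8.10 and 9.98). Sites seen at 6h and 12h included one inside Kat2b, a histone acetyltransferase (6.75 and 9.96 at 6h, 4.30 and 4.93 at 12h).

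Few genes had more than 1 changed region. Of the 12421 genes with a region within 100 kb of their start, 286 (2.3%) had a gained one and 925 (7.45%) a lost one. With 2 gained regions each there were 6 genes, among them Nfe2l2, the oxidative stress factor NRF2 (19 and 11.6 kb from the start; fold 7.13 and 7.56, and 7.02 and 7.50 at 24h), Tgfbr1, a TGF-beta receptor, Bcar3, Ckap4 and Eapp. Both gained sites of Tgfbr1 were called in all libraries of 0h and 12h. At least 2 lost regions were found for 60 genes, and 3 for Trim52 and Zfp800. All of those of Trim52 lay between genes at 57.2 to 83.2 kb from the start. Chd7, a chromatin remodeller, had 2 lost among 17 regions, Zfp36l2, an mRNA decay factor, 2 among 14, and Jazf1 2 among 11.

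The 15 gene lists, chosen with earlier results of these data known, were read against these shares. Of the 219 listed genes with a region, 13 (5.94%) had a gained and 23 (10.5%) a lost one. Listed genes had 2.52 regions on average and all genes 1.77, so listed genes offered more regions to call. With lists of equal length 24 listed genes had a gained and 10 a lost region. Of the 26 lost regions of listed genes, 10 were lost at equal list length and 10 with −log10 q of at least 5. Neither setting kept the lost sites of Itgam, Zeb2, Casp6, Mki67, Jun, Ier3, Pax5, Sox4 and Ccl4, among others. Of the 13 gained regions, 9 were gained with −log10 q of at least 5, without those of Irf8, Nr4a1, Mef2c and Pecam1.

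Self-renewal genes of the MLL-AF9 programme, which keep leukaemic progenitors dividing, held changed regions of both kinds. Of the 22 with a region, 4 had a gained one (Mef2c, Myc and Runx1 among them) and 4 a lost one (Mef2c, Kit, Lmo2 and Sox4), against 2.3% and 7.45% of all genes. These 22 genes had 4.45 regions each on average and all genes 1.77, the widest gap of any list, so that more regions per gene could be called. The gained site 1.80 kb from Myc, a driver of growth (chromosome 15, 61983408 to 61983632), had a fold of 7.91 and 7.29 at 24h on 19 and 20 tags, and 6.51 in the second 0h list. That inside Runx1, a core blood factor, had 5.72 and 5.83 at 24h and 7.10 in the first 0h list. At the start of Kit, the stem cell factor receptor (chromosome 5, 75574858 to 75575413), the lost site had 5.40 and 5.78 at 6h on 7 and 8 tags. It had 10.4 in the first 0h list and 8.59 and 6.06 at 12h, and was not lost at equal list length. The stronger of the 2 lost sites near Lmo2, a bridging factor of blood stem cells, had 5.94 and 6.89 at 6h. Sox4, a progenitor factor, had 5.30 and 4.46, near the bottom of the lists. Mef2c, a factor of myeloid and lymphoid progenitors, had 1 gained site (5.62 and 5.05 at 24h) and 1 lost site (6.17 and 6.03 at 6h), both inside the gene. The gained Mef2c site had 8.33 and 5.89 at 0h and 9.57 and 5.38 at 12h, so only the 6h libraries lacked it. With peaks of −log10 q of at least 5 it was not gained. The lost Mef2c site had 6.51 in the first 0h list and 7.44 in the second 12h list.

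Among 21 monocyte and macrophage genes with a region, 2 had a gained and 3 a lost one, against 2.3% and 7.45% of all genes. These 21 genes had 2.71 regions each on average and all genes 1.77. Irf8, the factor that directs monocyte and dendritic cell fate, had one of each on chromosome 8. The gained site 21.0 kb from its start (120715309 to 120715707) had 7.21 and 5.40 at 24h and 7.04 and 6.33 at 12h, with no peak at 0h or 6h. With peaks of −log10 q of at least 5 this site was not gained. The lost site 40.7 kb from its start (120779159 to 120779464) had 8.30 and 7.42 at 6h and 9.91 and 9.20 at 12h, with no peak at 0h or 24h. The site gained 1.02 kb from Maf, a macrophage factor, had 6.14 and 7.61 at 24h. It had 7.39 in the first 0h list and 8.41 in the first 12h list. Lost sites near Itgam, which encodes CD11b, and inside Zeb2 had 6.98 and 4.34, and 7.14 and 5.53, at 6h. Neither was lost at equal list length or with −log10 q of at least 5. The 11 neutrophil granule genes with a region had 0 gained and 0 lost ones. With so few genes, 0 cannot be told from the shares of all genes.

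Over all genes, 2.3% had a gained and 7.45% a lost region. All genes had 1.77 regions each on average, apoptosis genes 2.30 and cell cycle genes 2.31. Of 27 apoptosis genes with a region, Pmaip1, the gene of the BH3-only protein Noxa, was the 1 with a gained site (chromosome 18, 66467916 to 66468295). It had 8.81 and 7.03 at 24h on 16 and 13 tags and no peak in the 6 other libraries. Bcl2l11, which encodes the pro-apoptotic protein Bim, was nearest to a lost site that lay 63.1 kb away inside Acoxl (9.59 and 6.76 at 6h, called in every library of 0h and 12h). Casp6 had a lost site at 5.90 and 5.38. Of 29 cell cycle genes, 0 had a gained and 3 a lost region. The lost site inside Ccnd3, the cyclin D3 gene (chromosome 17, 47521430 to 47522023), had the highest mean percentile among changed regions of listed genes, with 11 and 9.37 at 6h on 20 and 16 tags, with 10.3 and 6.62 at 12h and 5.95 in the second 0h list. The sites named for Cdkn2b, a CDK inhibitor (8.10 and 6.86), and Mki67 (6.46 and 4.19) lay 58.3 and 49.9 kb from their starts. That named for Mki67 lay inside another gene, Ptpre, and was not lost at equal list length.

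Over all genes, 2.3% had a gained and 7.45% a lost region, at 1.77 regions per gene against 2.53 in the NF-kB list. Of 19 NF-kB and inflammatory genes with a region, 3 had a gained one. These were Tnfaip3, the feedback inhibitor A20 (28.7 kb from the start, 7.40 and 9.63 at 24h), Tnf (at the start, 6.94 and 5.75) and Socs3, an inhibitor of cytokine signalling (35.0 kb, 7.47 and 6.67). The Tnfaip3 and Tnf sites each had a peak in 1 library of 0h and 1 of 12h, and the Socs3 site in none. Nfkb1 had 2 lost sites (6.67 and 6.54, and 5.37 and 5.91, at 6h) and the chemokine gene Ccl4 had 1 (4.18 and 5.25). Of 22 AP-1 and immediate early genes, Nr4a1 had a gained region (5.27 and 5.82 at 24h), and Jun and Ier3 had lost ones (5.10 and 7.04, and 4.99 and 7.13). The Nr4a1 region had 6.28 in the first 0h list and 6.50 and 5.79 at 12h. Klf11 was the 1 of 18 KLF and SP family genes with a lost site (5.79 and 6.42 at 6h) and 0 had a gained one. The 12 interferon response genes had 0 of either kind, too few genes to tell 0 from the shares of all genes. Of 6 pluripotency and epithelial genes with a region, Esrrb, Lin28a and Cdh1 had a lost site and 0 a gained one, with folds of 4.21 to 7.48 at 6h. None of these 3 sites stayed lost at equal list length.

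Markers of other cell types were read against the same shares, a gained region for 2.3% and a lost one for 7.45% of all genes. Each of these lists had only 5 to 10 genes with a region, so 1 gene weighs heavily in a share. Pax5 of the B lineage (1 of 5 genes with a region), Lef1 of the T and NK lineage (1 of 10) and Pdgfrb of stroma (1 of 9) had lost sites, Plek of megakaryocytes (1 of 8) and Pecam1 of endothelium (1 of 9) gained ones, and the 5 erythroid genes 0. B cell markers that held a peak, or had one at most 10 kb away, numbered 8 and 9 of 16 in the 6h lists, compared with 5 and 6 at 24h. Stromal and endothelial markers numbered 7 and 6, and 3 and 5, of 16, while T and NK markers numbered 8 and 6, and 6 and 7, of 18. Erythroid markers numbered 6 and 5, and 4 and 6, of 16, and megakaryocyte markers 10 and 11, and 9 and 10, of 16. Of the self-renewal genes 24 and 23 had such a peak at 6h and 22 and 21 at 24h, of 25, and of the monocyte and macrophage genes 14 and 19, and 14 and 14, of 32. The same count was not made over all genes. The 24h lists were shorter, and the part of list length or of other cells in these numbers was not tested.

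Among regions called in all 4 lists, no gene's region passed the test of a difference in peak strength between 24h and 6h. Over these 10466 regions the Spearman correlation of fold was 0.724 between the 6h libraries, 0.736 between the 24h libraries and 0.709 to 0.730 between libraries of different times. These correlations are across regions of libraries that share background and depth. Limma's moderated test on the rank of fold, 24h against 6h, called 0 of 10466 regions (0%) at an adjusted p of 0.05, with 0.87 the smallest adjusted p. An unadjusted p under 0.05 was found for 593 regions (5.67%). A p that misses the threshold does not show that strengths were equal.

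Percentiles within the deposited lists looked lopsided. Both 24h percentiles were above both 6h ones in 1158 regions (11.1%) and below them in 2664 (25.5%), and the median change was -3.55 points. Ranked among the 10466 shared regions alone, which gives each library the same regions, 1805 were higher and 1807 lower at 24h. Ranks over the same regions have the same sum in each library, so this ranking pulls the counts towards balance by construction and does not show what made the other counts uneven. Libraries of one time differed by a median of 10.7 points at 6h and 11.4 at 24h, and single libraries of different times by 11.6.

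The largest positive differences in mean percentile, 24h minus 6h, were at Mfhas1, Ift122, Elob, Tubb2a, Niban2, Simc1, Pcyox1, Rnf8, Hpdl and Cttn, at 43.5 to 53.2 points. The start of Elob, a subunit of elongin and of cullin ubiquitin ligases (chromosome 17, 23829061 to 23829506), had a fold of 7.51 and 6.48 at 6h on 16 and 11 tags, and 13.0 and 12.8 at 24h on 25 and 29 tags. Its rank shift was 2.09 ± 0.476 normal-score units (SE), with limma's adjusted p = 0.87. The start of Rnf8, a ubiquitin ligase of the DNA damage response (chromosome 17, 29614514 to 29615193), had 7.07 and 6.79 at 6h against 11.9 and 11.4 at 24h. That of Tubb2a, a beta-tubulin, had 5.49 and 6.69 at 6h and 10.7 and 11 at 24h. In the region inside Niban2 the 12h libraries, at 13.1 and 12.2, were as high as those of 24h, at 13.3 and 10.7, with 6.37 and 7.04 at 6h.

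The largest negative differences were at Atp6v1h, Pde6h, Zswim6, Tsfm, Arhgap10, Cul2, Bola3, Micu3, Cpq and Vamp2, at -52.9 to -61.3 points. Atp6v1h, a subunit of the lysosomal proton pump (chromosome 1, 5082839 to 5083415), had 11.5 and 8.88 at 6h against 5.18 and 5.10 at 24h, on 16 and 12 against 6 and 6 tags. Tsfm, a mitochondrial translation factor (chromosome 10, 127030174 to 127030915), had 8.58 and 13.0 at 6h, reached 12.0 and 13.5 at 12h, and had 5.83 and 5.29 at 24h. Bola3, which takes part in mitochondrial iron-sulphur protein assembly, had 10.4 and 12.3 at 6h against 7.00 and 5.63 at 24h. Of these 10 the smallest unadjusted p was 0.000207, at the site 39.3 kb from Pde6h (9.25 and 9.51 at 6h, 4.70 and 4.06 at 24h), and limma's adjusted p was 0.87. The groups do not overlap in any of these 20 regions because they were chosen that way.

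**Figure D5:**
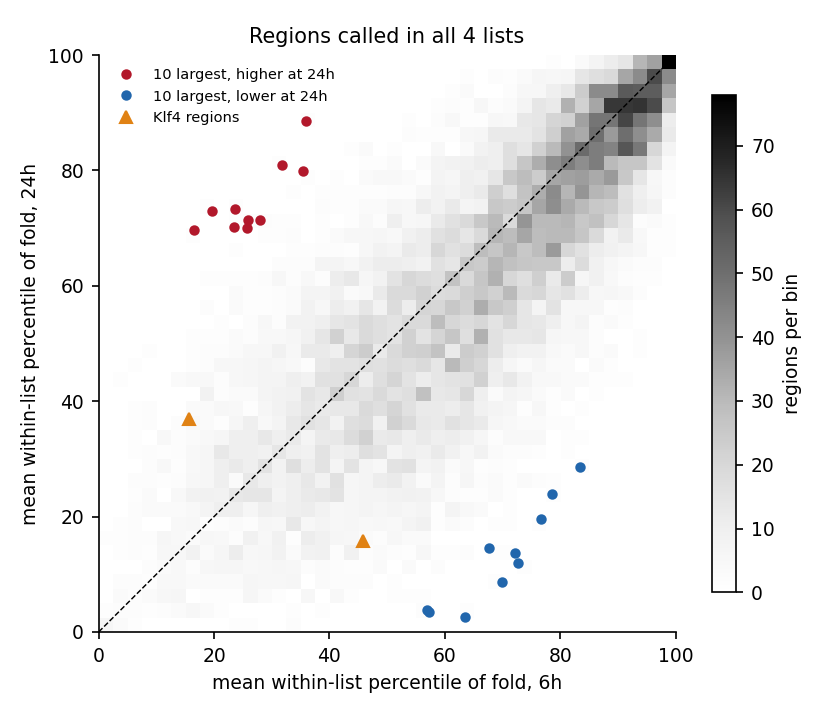
Mean within-list percentile of fold at 6h (horizontal) and 24h (vertical) for the 10466 regions called in all 4 lists, as counts per bin in grey, with the 10 largest positive and 10 largest negative differences and the Klf4 regions marked and the diagonal dashed. Most regions lie near the diagonal, and the median change is -3.55 points.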

How the data were processed

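Reads had been processed with BWA, SAMtools and MACS2 on mm10, per the submitters' processing notes. Their versions and settings, any read shift for the transposase and the handling of duplicates are not stated in those notes. Each library has its own peak list, deposited with a fold enrichment (a linear ratio), a −log10 p and −log10 q, a score and a summit position for each peak. The score was not used. These values were used to rank, filter or describe peaks within a list.

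Summit pile-ups were recovered from the deposited fold and −log10 p within a tolerance of 0.001, for 99.8% to 99.9% of peaks. The background in tags per kb is the lowest local background of a list over its smallest peak width. Distances run from the strongest summit to the nearest transcript start of 17273 protein-coding genes, or to either end of 4354 genes for which the table used here gave no start. The annotation gave gene spans and starts, without exons. A region was named by that gene within 100 kb.

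Ranks of fold over shared regions were turned into normal scores and tested with limma 3.58.1 (R 4.3.3; trend, Benjamini-Hochberg over all shared regions), 24h minus 6h. Merging, calling and this test were checked on simulated data. There limma called 3 of 50 regions shifted by 1 normal-score unit, 35 of 50 shifted by 2 and 50 of 50 shifted by 3. It also called 5 regions that were not shifted. Shifts of 1 unit would thus mostly be missed. Shares carry 95% intervals by Wilson's method, for counting error alone.

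The members and lists were chosen with earlier results of these data known. Named were Klf4; the 10 gained and 10 lost regions of highest mean percentile; 5 of each near a start; up to 5 genes with most; members of the 15 lists; the 10 largest positive and negative differences in shared regions; and the first 3 of each course over time, of which some are not reported. The values of 1 list member are not reported here. Motifs and printed promoters were chosen later.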

Additional observations from a re-analysis of the deposited data

How the results depend on the processing

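Leaving out a library moved the counts of regions furthest. Equal list length gave 569 gained and 599 lost regions (gained share 48.7%), 24 listed genes with a gained and 10 with a lost region, 24.1% of gained regions near a start, and 1853 shared regions higher and 1595 lower; the 24h minus 6h difference of median peak width turned from 9.50 to -30.0 bp. Peaks of −log10 q of at least 5 gave 14 listed genes with a lost region, and 24.1% of gained and 20.8% of lost regions near a start. A cover of 50% gave a gained share of 25.5% and 27.7% and 25.9% near a start; only its first condition was applied, since merged regions always meet the other. Within 5 kb of a start were 28.4% of gained and 26.1% of lost regions. Genes limited to 10 kb left 5 listed genes with a gained and 11 with a lost region. Ranks among shared regions gave 1805 higher. Leaving out each library in turn gave 797 to 1464 gained and 2068 to 3939 lost regions, a gained share of 16.8% to 41.4%, 2647 to 2949 shared regions higher and 4513 to 4997 lower, 25 to 38 listed genes with a gained and 36 to 77 with a lost region, and 15% to 28% of gained and 14.8% to 24.7% of lost regions near a start. Fewer libraries have to concur there, which by construction raises the counts. For the other shifts the cause was not tested. The number of peaks and the Mb covered stayed lower at 24h under each alternative run for them.

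Limma called 0 shared regions under each of the 9 alternatives, with 442 to 700 at an unadjusted p under 0.05. With the replicate block it called 0, with 612 unadjusted. Same-numbered libraries did not deviate together (correlation of deviations 0.00700 over 10466 regions), so the numbers were not taken as pairs. Of 39 gained regions named, 39 were gained at equal list length, and of 57 lost ones 36 were lost. Equal length removed few or no peaks from the lists of the later time, so it could hardly undo a gained call. With peaks of −log10 q of at least 5, 30 of the 39 gained and 37 of the 57 lost regions kept their call. With a cover of 50%, 32 of the 39 and 46 of the 57 did. Any gene end in place of a start, chosen after seeing the data, moved 0 of the counts by over 1.5 times. Summits of about 9 tags limit every call of presence.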
